A study of Mus musculus with 19 samples.

Results

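De novo lipogenesis was examined through 10 genes: the transcription factor genes *Srebf1* and *Mlxipl* and the enzyme genes *Acly*, *Acaca*, *Acacb*, *Fasn*, *Me1*, *Scd1*, *Scd2*, and *Elovl6*. They are listed by name as genes of this pathway, and all 10 were found by symbol among the 55487 genes listed. Crypt RNA of the small intestine came from 19 C57BL/6 mice of both sexes, with 1 library from each. By the study's methods, crypts were taken from the proximal part of the small intestine, so its distal end was not sampled. Ad libitum–fed groups held 5 *Nt*+/+ and 4 *Nt*-/- animals, and groups fasted for 48 hours held 5 of each genotype. *Nt*-/- mice lack a functional neurotensin gene (*Nts*) in the whole body from conception, so the loss was neither limited to the crypt nor timed to the fast. The study kept adult littermates on standard chow. It introduces its *Nt*+/+ and *Nt*-/- mice as carriers of an *Lgr5*-EGFP allele and lists mice without that allele in its methods, and the sample labels name no *Lgr5* allele.

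De novo lipogenesis builds fatty acids from acetyl-CoA in the cytosol. ATP citrate lyase frees acetyl-CoA from exported citrate, acetyl-CoA carboxylase turns it into malonyl-CoA, and fatty acid synthase joins malonyl units into palmitate at the expense of NADPH. Elongases and stearoyl-CoA desaturases then lengthen and desaturate the product. In liver the pathway follows feeding, with insulin acting through SREBP-1c (from *Srebf1*) and sugar through ChREBP (from *Mlxipl*), and the enterocyte also holds the enzymes.

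*Nts*, the gene lost in the knockout, stood at 6.75 to 8.59 CPM (counts scaled to a common library total) in the fed *Nt*+/+ mice and at 0.144 to 0.746 CPM in the fed *Nt*-/- mice. After the fast it stood at 4.98 to 5.71 CPM in *Nt*+/+ and 0.214 to 0.793 CPM in *Nt*-/- mice. In 1 mouse, fasted *Nt*+/+ replicate 5, the title and the genotype label disagreed. It was kept under its title, *Nts* in it lay within the *Nt*+/+ range, and values with the other label follow where they matter. Libraries held from 9059457 to 35068711 expected counts. Adipocytes, which use the same enzymes, left little trace: *Adipoq*, *Lep*, *Plin1*, *Cfd*, *Car3*, and *Retn* did not pass 0.32 CPM in any mouse. *Cidec* and *Pparg*, the other listed adipocyte genes, reached 32.57 and 19.02 CPM and are also known from enterocytes. Genes of the crypt epithelium summed to between 6722 and 9649 CPM in every library. Much of that sum came from general epithelial genes, such as *Krt8* (mean, 1731 CPM), *Vil1* (1447 CPM), and *Krt19* (1114 CPM). The sum therefore shows epithelium and does not set crypt apart from villus. *Olfm4* (mean, 1385 CPM), *Mki67* (674 CPM), *Lgr5* (30.7 CPM), and *Ascl2* (6.46 CPM) were detected in every mouse.

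Villus enterocyte markers rose with the fast, and some genes of the goblet and crypt lists were called. Fasting raised 8 of 10 villus enterocyte markers in the *Nt*+/+ genotype and all 10 in *Nt*-/-, where the shares of all genes would give 1.12 and 1.25 of these markers. Their summed level was 4811 to 10472 CPM in fed and 10167 to 20510 CPM in fasted *Nt*+/+ mice. The *Nt*-/- mice had 7587 to 11730 CPM fed and 17573 to 25127 CPM fasted. Of 7 goblet cell markers, 1 was called higher and 2 lower in *Nt*+/+ mice, where the shares of all genes would give 0.787 and 0.725. In *Nt*-/- mice 1 was called higher and 4 lower, where they would give 0.878 and 0.884. The goblet markers did not move together. *Agr2* stood at -1.001 and -1.59 and *Clca1* at -1.51 and -2.22 on the log2 scale, whereas *Zg16* rose by 0.93 and 1.25. *Muc2* (-0.33 and -0.83) and *Spink4* (-0.77 and -1.31) lay below 0 in both genotypes and were called lower in *Nt*-/- mice only. *Fcgbp* (0.17 and 0.16) and *Tff3* (0.13 and 0.03) were not called. Of 9 genes of the crypt epithelium, 2 were called lower in each genotype, which were *Mki67*, of dividing cells (-0.46 and -0.59), and *Olfm4*, of crypt base cells (-0.63 and -0.92). The shares of all genes would give 0.932 and 1.14, so this count is not a result about the crypt list. The adipocyte list had 2 genes that could be tested, *Cidec* (1.15 and 1.41) and *Pparg* (1.15 and 1.47). Both were called higher in each genotype, where the shares of all genes would give 0.225 and 0.251. The part of these markers in the fasting differences that follow was not tested. In bulk RNA, fewer cells of a type and less RNA per cell cannot be told apart.

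Fasting lowered several genes of the enzyme chain and raised *Acacb*. *Scd2*, a stearoyl-CoA desaturase, fell 18.3-fold in *Nt*+/+ and 24.0-fold in *Nt*-/- mice, while *Acacb*, the carboxylase of the mitochondrial surface, rose 5.17-fold and 4.89-fold. *Fasn*, *Acly*, and *Elovl6* fell by smaller amounts in both genotypes, and *Acaca* in *Nt*-/- mice; in *Nt*+/+ mice *Acaca* did not pass, though it did with the replicate number as a block. *Srebf1* and *Mlxipl*, the regulators, did not pass the test in either genotype. In fasted *Nt*+/+ mice 1 of the 10 genes was called higher, where 11.2% of the 17875 genes tested were, and 4 were called lower, where 10.4% were. With the replicate number as a block 7 were called in these mice, 2 higher and 5 lower, as *Me1* and *Acaca* then passed too. Calls over all 17875 genes also rose with the block, from 2010 higher and 1852 lower without it. They were 2489 higher and 2517 lower with the numbers of the titles, and 2683 and 2801 with those of the file names. In fasted *Nt*-/- mice 1 was called higher (12.5% of all genes) and 5 lower (12.6% of all genes). The median log2 fold change over the 10 genes was -0.30 in *Nt*+/+ and -0.43 in *Nt*-/- mice, beside -0.01 and -0.02 over all genes tested. A gene was called where the p of the quasi-likelihood test in edgeR, adjusted over all genes by Benjamini and Hochberg, was under 0.05, and errors of fold changes are standard errors (SE). The comparisons within each genotype share no mice with each other. Both come from 1 fit with 1 shared estimate of spread, so they are not fully independent.

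**Figure D1:**
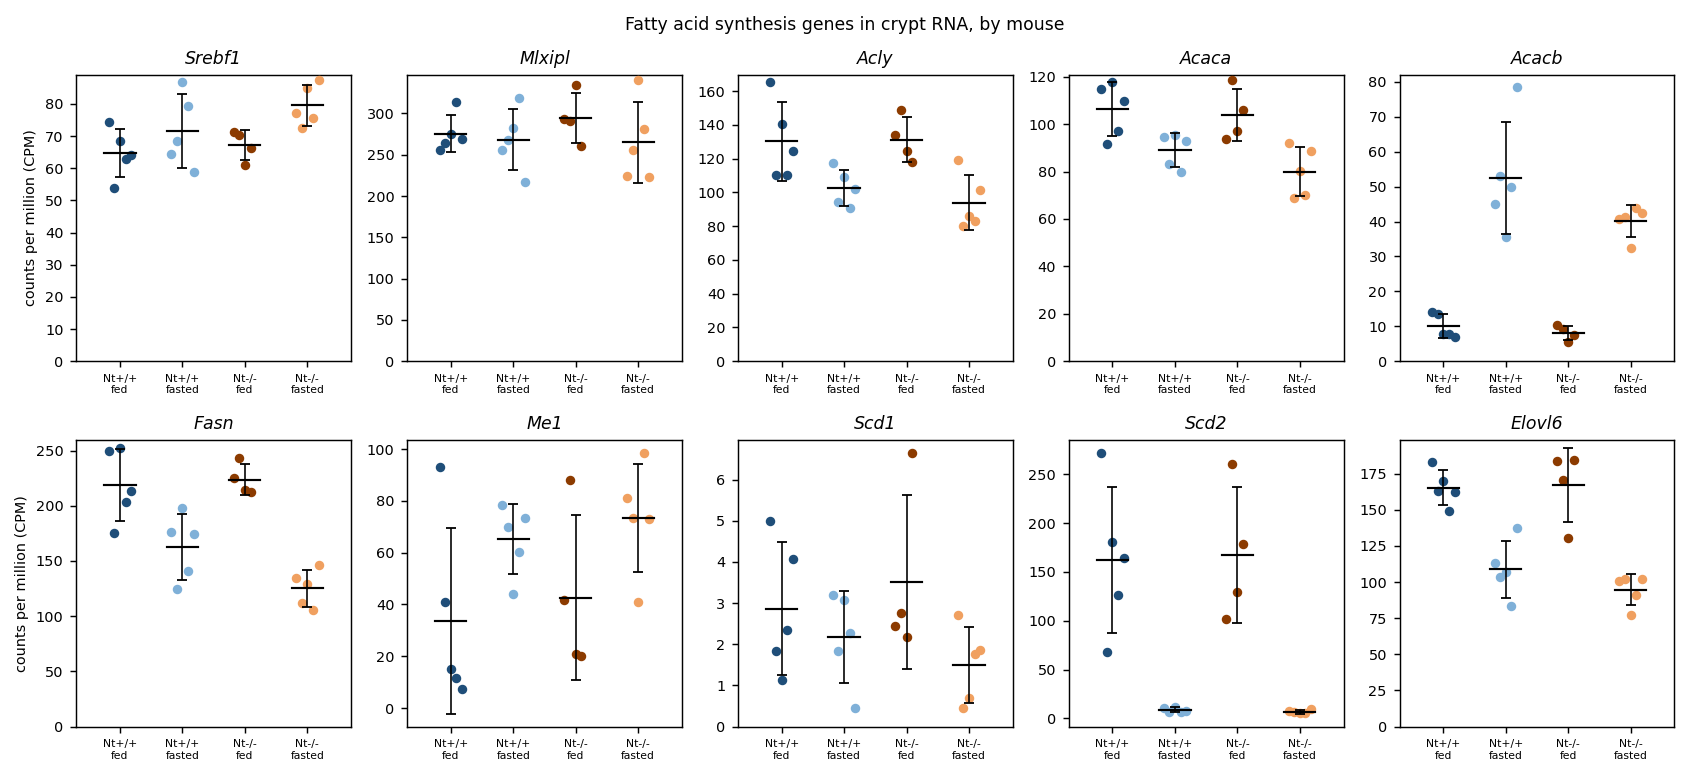
CPM of each gene (vertical axes, each from its own scale) in every mouse, with 1 point per mouse, a bar at the group mean and whiskers of 1 SD. Fasted mice lie far below fed mice for *Scd2* and far above them for *Acacb*, while *Srebf1* and *Mlxipl* overlap between most groups.

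**Figure D2:**
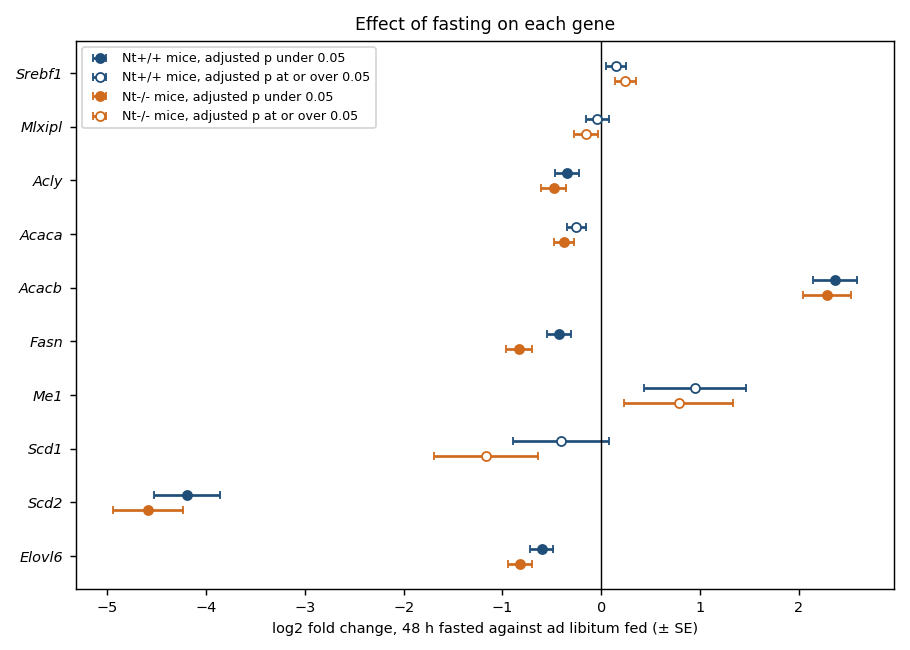
Log2 fold change of fasted against ad libitum–fed mice (horizontal axis) for each gene in *Nt*+/+ and *Nt*-/- mice, with SE whiskers and filled points for an adjusted p under 0.05. *Acacb* lies to the right at 2.37 and 2.29, *Scd2* to the left at -4.19 and -4.59, and the remaining genes lie between -1.17 and 0.95.

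Levels were compared between genes in the deposited TPM values, which divide by transcript length before scaling to a common total. *Mlxipl* was the most abundant of the 10 in fed *Nt*+/+ mice, at 132 ± 18.9 TPM (SD, n = 5), and its lowest mouse lay above the highest of any other gene. *Acly* (44.3 ± 2.32 TPM), *Elovl6* (38.7 ± 2.60 TPM), *Srebf1* (37.0 ± 2.94 TPM), *Scd2* (34.6 ± 13.2 TPM), and *Fasn* (33.6 ± 2.08 TPM) followed, and each of these overlapped its neighbor in that order. *Acaca* (20.2 ± 2.98 TPM) and *Me1* (14.4 ± 13.6 TPM) came next and overlapped each other. *Acacb* (1.63 ± 0.470 TPM) and *Scd1* (0.930 ± 0.213 TPM) were lowest. In fasted *Nt*+/+ mice *Scd2* had dropped to 1.92 ± 0.445 TPM and lay below *Acacb* at 7.28 ± 1.94 TPM without overlap. This exchange was also seen in *Nt*-/- mice, where fasted *Scd2* stood at 1.52 ± 0.481 TPM and *Acacb* at 5.76 ± 1.36 TPM (n = 5).

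The promoters of *Fasn* and *Acly*, which fell, and of *Acacb*, which rose, are shown as the 250 bases before the RefSeq start (GRCm38.p6). Capitals mark matches to 4 motifs, searched on both strands. The sterol regulatory element was searched as TCACNCCAC. The E-box was searched as CACGTG and the box bound by NF-Y as CCAAT. The GC box was searched as GGGCGG. The window of *Fasn* is chr11:120824548-120824797 and that of *Acly* is chr11:100528001-100528250, both on the minus strand. That of *Acacb*, chr5:114165268-114165517 on the plus strand, lies inside the Ensembl gene, at a start downstream of the outermost one.
Fasn: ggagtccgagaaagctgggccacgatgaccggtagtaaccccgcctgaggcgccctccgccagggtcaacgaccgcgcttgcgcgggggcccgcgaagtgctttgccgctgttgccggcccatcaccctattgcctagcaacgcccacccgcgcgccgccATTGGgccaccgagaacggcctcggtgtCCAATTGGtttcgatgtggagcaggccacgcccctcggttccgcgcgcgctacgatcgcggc
Acly: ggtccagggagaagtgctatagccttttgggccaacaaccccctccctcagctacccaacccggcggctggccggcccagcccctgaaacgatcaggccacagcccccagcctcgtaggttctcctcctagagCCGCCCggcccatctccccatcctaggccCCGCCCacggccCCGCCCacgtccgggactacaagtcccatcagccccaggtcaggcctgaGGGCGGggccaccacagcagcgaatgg
Acacb: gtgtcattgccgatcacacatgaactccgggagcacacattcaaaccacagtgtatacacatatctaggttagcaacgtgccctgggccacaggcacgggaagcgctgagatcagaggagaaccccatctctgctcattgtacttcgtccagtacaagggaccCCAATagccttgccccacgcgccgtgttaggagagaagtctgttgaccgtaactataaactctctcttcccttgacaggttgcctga
*Fasn* held CCAAT letters at -90 to -86, -62 to -58, and -59 to -55 from its start, the last pair overlapping on opposite strands. *Acly* held 4 GC boxes and *Acacb* a CCAAT box at -87 to -83. The window of *Acaca* and that of *Elovl6* held none of the 4 motifs. That of *Acaca*, chr11:84195188-84195437 on the plus strand, also lies inside the Ensembl gene, downstream of its outermost start. The bases before that outermost start were not searched. Start sites were listed for 8 of the 10 genes, and *Scd1* and *Scd2* were not among them. Over all start sites of those 8 genes, 5 genes held a CCAAT box, 4 a GC box, 1 an E-box (*Mlxipl*), and 1 a sterol regulatory element (*Mlxipl*, at its downstream start). Of 32851 RefSeq windows of the same length, 33.8% held CCAAT, 32.7% the GC box, 6.02% the E-box, and 1.05% the sterol regulatory element. These shares are per window. The counts of genes pool all windows of a gene, and *Srebf1*, *Mlxipl*, and *Me1* had more than 1, so the counts and shares are not directly comparable. A match of letters describes the sequence and does not show a bound site.

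*Srebf1* (ENSMUSG00000020538; GRCm38 chr11:60199089-60222581, minus strand) encodes SREBP-1, the lipogenic activator whose precursor is cut in the Golgi. Replicates 1 to 5 of the fed *Nt*+/+ mice held 74.3, 53.8, 68.4, 62.7, and 64.2 CPM, and the fasted ones 64.5, 68.4, 86.8, 79.4, and 58.8 CPM. Fed *Nt*-/- mice held 71.2, 70.3, 61.1, and 66.4 CPM and fasted ones 77.3, 72.6, 85.0, 75.5, and 87.4 CPM. The *Nt*+/+ groups overlapped widely, and in *Nt*-/- mice every fasted value lay above every fed one by a small margin. The log2 fold change was 0.15 ± 0.10 in *Nt*+/+ mice (adjusted p = 0.323) and 0.24 ± 0.11 in *Nt*-/- mice (adjusted p = 0.101, edgeR). Neither passed the test, though the latter did when only the *Nt*-/- groups entered the fit (adjusted p = 0.0472). Its tail overlaps that of *Rai1* on the other strand.

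*Mlxipl* (ENSMUSG00000005373; chr5:135089890-135138382, plus strand) encodes ChREBP, the carbohydrate-responsive activator of lipogenic and fructose-handling genes. It ranged from 256 to 313 CPM in fed *Nt*+/+ mice (median, 269) and from 217 to 318 CPM in fasted ones (median, 267). In *Nt*-/- mice the values were 261 to 335 CPM fed and 223 to 341 CPM fasted. All 4 groups overlapped. The fold change with fasting was -0.04 ± 0.12 on the log2 scale in *Nt*+/+ mice (adjusted p = 0.855) and -0.15 ± 0.12 in *Nt*-/- mice (adjusted p = 0.391, edgeR).

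*Acly* (ENSMUSG00000020917; chr11:100476353-100528000, minus strand) encodes ATP citrate lyase, the source of cytosolic acetyl-CoA. Replicates 1 to 5 held 165, 110, 141, 110, and 125 CPM in fed and 117, 94.0, 109, 90.8, and 102 CPM in fasted *Nt*+/+ mice. *Nt*-/- mice held 134, 149, 124, and 118 CPM fed and 119, 80.0, 85.8, 83.2, and 101 CPM fasted. Fasted values were lower on the whole, and the ranges touched in both genotypes, with replicate 1 the highest of the fasted mice. *Acly* fell by 0.34 ± 0.12 on the log2 scale in *Nt*+/+ mice (edgeR adjusted p = 0.0494) and by 0.48 ± 0.13 in *Nt*-/- mice (adjusted p = 0.00948). The *Nt*+/+ call lay at the threshold: it was kept under 5 of the 11 other settings tried and lost in 14 of 19 fits that left out a mouse, with an adjusted p of up to 0.157 without fed replicate 1. Among the 14 were fits without an *Nt*-/- mouse, which is not in this comparison. There the log2 value stayed between -0.345 and -0.343, with an edgeR adjusted p of 0.0507 to 0.0589. The *Nt*-/- call passed under all 11 settings.

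*Acaca* (ENSMUSG00000020532; chr11:84129672-84401651, plus strand) encodes acetyl-CoA carboxylase 1, the cytosolic enzyme that supplies malonyl-CoA to fatty acid synthase. Fed *Nt*+/+ mice held 115, 91.6, 118, 97.1, and 110 CPM, and fasted ones 94.7, 83.1, 95.2, 79.7, and 92.8 CPM. For *Nt*-/-, the fed mice held 93.5, 118, 97.2, and 106 CPM, and fasted ones 92.0, 68.9, 80.1, 70.1, and 88.6 CPM. The groups did not overlap in *Nt*-/- mice, and in *Nt*+/+ mice they overlapped through 1 fed mouse, replicate 2. *Acaca* fell by 0.37 ± 0.10 on the log2 scale in *Nt*-/- mice (edgeR adjusted p = 0.0101). The call rested on fed replicate 2, without which the adjusted p was 0.0505. In *Nt*+/+ mice the log2 difference was -0.25 ± 0.10 (adjusted p = 0.0645). When the replicate number entered the fit as a block, the *Nt*+/+ difference passed the test (adjusted p = 0.0428 with the numbers of the titles and 0.0261 with those of the file names).

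*Acacb* (ENSMUSG00000042010; chr5:114146535-114250761, plus strand) encodes acetyl-CoA carboxylase 2, whose malonyl-CoA restrains fatty acid entry into mitochondria. Fed *Nt*+/+ mice held 14.01, 13.6, 7.93, 7.87, and 7.06 CPM and fasted ones 45.1, 53.1, 35.6, 50.0, and 78.4 CPM. Fed *Nt*-/- mice held 10.4, 9.15, 5.63, and 7.40 CPM and fasted ones 40.6, 41.2, 32.4, 44.0, and 42.5 CPM. Every fasted mouse lay above every fed mouse of either genotype. *Acacb* rose by 2.37 ± 0.22 on the log2 scale in *Nt*+/+ mice (edgeR adjusted p = 4.94e-07) and by 2.29 ± 0.24 in *Nt*-/- mice (adjusted p = 2.25e-06). It was higher in 5 of 5 *Nt*+/+ and 4 of 4 *Nt*-/- pairs with the same file number. The villus markers rose in the same mice, and their part in this difference was not tested.

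The carboxylase pair moved apart. The log2 ratio of *Acaca* to *Acacb* expected counts went from 3.45 ± 0.53 (SD, n = 5) in fed to 0.81 ± 0.45 (n = 5) in fasted *Nt*+/+ mice. In *Nt*-/- mice it went from 3.698 ± 0.39 (n = 4) to 0.99 ± 0.28 (n = 5). The differences were -2.64 ± 0.31 (SE) and -2.71 ± 0.23, with an adjusted p of 0.0476 in each by the exact two-sided permutation test over mice, adjusted over 12 ratio tests. The unadjusted p of 0.00794 in *Nt*+/+ mice is the smallest that 5 against 5 allows. Sign permutation within pairs of mice with the same file number gave an adjusted p of 0.25 in each genotype, where 5 pairs allow no unadjusted p under 0.0625 and 4 none under 0.125. Counts favor the longer transcript, so only the change of this ratio is read, not its level.

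*Fasn* (ENSMUSG00000025153; chr11:120805846-120824547, minus strand) encodes fatty acid synthase, the enzyme that makes palmitate. Fed *Nt*+/+ mice held 249, 175, 252, 204, and 213 CPM, and fasted ones 176, 124, 198, 141, and 174 CPM. For *Nt*-/-, the fed mice held 226, 243, 214, and 212 CPM, and fasted ones 135, 112, 129, 105, and 146 CPM. In *Nt*-/- mice the fed and fasted groups lay far apart, while in *Nt*+/+ mice the fed replicate 2 fell among the fasted values. *Fasn* fell by 0.43 ± 0.12 on the log2 scale in *Nt*+/+ mice (edgeR adjusted p = 0.0172) and by 0.83 ± 0.13 in *Nt*-/- mice (adjusted p = 0.000123). It was lower in 5 of 5 and 4 of 4 pairs with the same file number. In *Nt*+/+ mice the call was lost without fed replicate 3 (adjusted p = 0.0507), fasted replicate 2 (0.0615), or fasted replicate 4 (0.0521).

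*Me1* (ENSMUSG00000032418; chr9:86581371-86695953, minus strand) encodes cytosolic malic enzyme, which yields NADPH. Fed *Nt*+/+ mice held 93.1, 40.8, 15.1, 11.5, and 7.49 CPM, and fed *Nt*-/- mice 41.8, 87.9, 20.9, and 20.0 CPM. Fasted *Nt*+/+ mice held 78.5, 69.8, 44.0, 60.3, and 73.4 CPM, and fasted *Nt*-/- mice 81.1, 73.5, 41.0, 98.5, and 73.1 CPM. Fasted mice lay between 41.0 and 98.5 CPM, whereas fed mice were spread widely, with replicates 1 and 2 the highest of both fed groups. *Acacb* was also highest in those fed replicates of each genotype. The log2 fold change with fasting was 0.95 ± 0.52 in *Nt*+/+ mice (edgeR adjusted p = 0.209) and 0.78 ± 0.55 in *Nt*-/- mice (adjusted p = 0.333), and neither passed the test. When the replicate number entered the fit as a block, the *Nt*+/+ value was 1.31 with the numbers of the titles (adjusted p = 0.0351) and 1.33 with those of the file names (adjusted p = 0.0322). Without fed *Nt*+/+ replicate 1 it was 1.79 (adjusted p = 0.0102). What the numbers stand for is not stated, and whether a shared day or litter moved *Me1* was not tested. Mice with the same file number were also of the same sex wherever a sex was given.

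**Figure D3:**
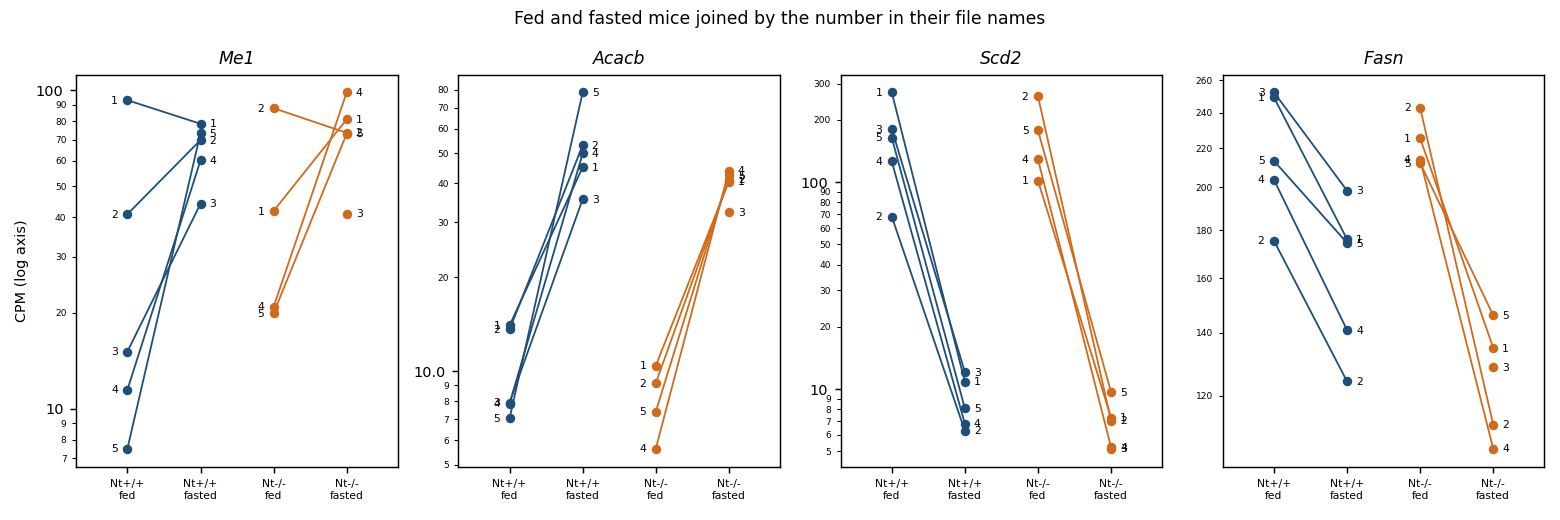
CPM of *Me1*, *Acacb*, *Scd2*, and *Fasn* (log axes) in fed and fasted mice of each genotype, with a line between mice that carry the same number in their file names and that number beside each point; number 3 has no fed *Nt*-/- mouse. *Me1* was far higher fasted than fed in mice numbered 3 to 5 and not in *Nt*+/+ number 1 (93.1 to 78.5 CPM) or *Nt*-/- number 2 (87.9 to 73.5 CPM), while *Acacb*, *Scd2*, and *Fasn* moved one way in every pair.

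*Scd1* and *Scd2* encode stearoyl-CoA desaturases, which place the cis bond that turns stearate into oleate; *Scd1* is the main form of liver and fat, and *Scd2* is widely expressed. *Scd2* (ENSMUSG00000025203; chr19:44293674-44306864, plus strand) held 272, 68.2, 181, 126, and 164 CPM in fed *Nt*+/+ mice and 10.8, 6.28, 12.1, 6.80, and 8.06 CPM in fasted ones. Fed *Nt*-/- mice held 102, 260, 129, and 178 CPM and fasted ones 7.26, 7.04, 5.15, 5.23, and 9.67 CPM. No fasted mouse came near the lowest fed mouse. *Scd2* fell by 4.19 ± 0.34 on the log2 scale in *Nt*+/+ mice (edgeR adjusted p = 6.13e-08) and by 4.59 ± 0.36 in *Nt*-/- mice (adjusted p = 3.19e-08). These were the largest changes among the 10 genes. Leaving out any mouse kept the value between -4.39 and -3.92 in *Nt*+/+ and between -4.77 and -4.29 in *Nt*-/- mice.

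*Scd1* (ENSMUSG00000037071; chr19:44394455-44407879, minus strand) was near the limit of detection. It held 4.99, 1.82, 1.12, 2.33, and 4.06 CPM in fed *Nt*+/+ mice and 3.19, 1.84, 3.09, 2.28, and 0.448 CPM in fasted ones. Fed *Nt*-/- mice held 2.45, 2.76, 2.17, and 6.66 CPM and fasted ones 2.72, 0.454, 0.694, 1.77, and 1.85 CPM. The groups overlapped in both genotypes. The log2 fold change was -0.41 ± 0.49 in *Nt*+/+ mice (edgeR adjusted p = 0.600) and -1.17 ± 0.52 in *Nt*-/- mice (adjusted p = 0.113). The latter passed when fasted *Nt*+/+ replicate 5 was taken as *Nt*-/-, as its genotype label says (-1.36, adjusted p = 0.0431), and by limma on TPM (adjusted p = 0.00944). Between 4 and 125 counts lay behind each value, and the effective length that RSEM gave *Scd1* ran from 1857 to 4735 bases between mice. The *Scd* genes are close paralogs, so the division of shared reads between them rests on RSEM's model.

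Per length, *Scd2* exceeded *Scd1* in every mouse. The ratio of *Scd2* to *Scd1* TPM was 17.3 to 64.4 in fed *Nt*+/+ mice and 1.91 to 6.83 in fasted ones. It was 25.4 to 38.0 in fed *Nt*-/- mice and 1.82 to 13.9 in fasted ones. The log2 ratio of *Scd1* to *Scd2* counts rose by 3.64 ± 0.60 (SE) with fasting in *Nt*+/+ mice and by 3.24 ± 0.58 in *Nt*-/- mice, with an adjusted p of 0.0476 in each by the exact two-sided permutation test. Within pairs of the same file number the exact sign permutation gave an adjusted p of 0.25 in each. The fall of *Scd2* was not matched by *Scd1*.

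*Elovl6* (ENSMUSG00000041220; chr3:129532355-129638495, plus strand) encodes the elongase that takes palmitate to stearate. Fed *Nt*+/+ mice held 183, 163, 170, 149, and 162 CPM, and fasted ones 113, 103, 107, 83.2, and 137 CPM. Fed *Nt*-/- mice held 183, 170, 130, and 185 CPM, and fasted ones 101, 102, 77.3, 91.3, and 102 CPM. Every fasted mouse lay below every fed mouse of its own genotype. *Elovl6* fell by 0.60 ± 0.12 on the log2 scale in *Nt*+/+ mice (edgeR adjusted p = 0.0011) and by 0.82 ± 0.12 in *Nt*-/- mice (adjusted p = 8.96e-05). Its first exon overlaps the antisense gene *Gm35986*, and antisense genes are also annotated within *Mlxipl* (*Gm43500*), *Acaca* (*Gm11437*), and *Me1* (*A330041J22Rik*); the strand setting of the counting is not given in the sources used here.

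**Figure D4:**
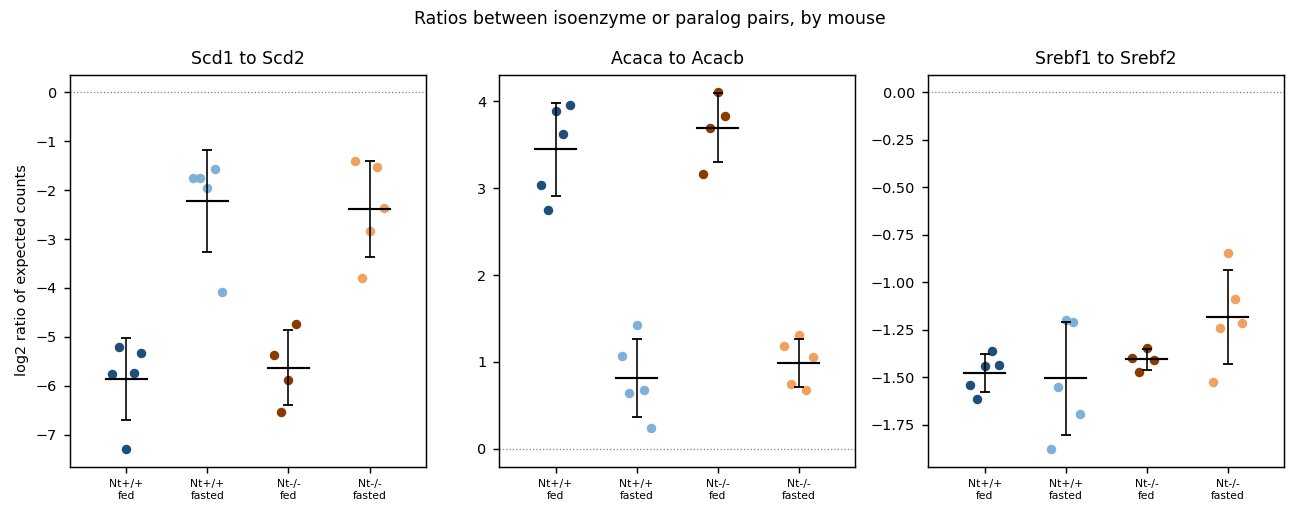
Log2 ratio of expected counts (with 0.5 added to each) for *Scd1* to *Scd2*, *Acaca* to *Acacb*, and *Srebf1* to *Srebf2*, with 1 point per mouse, a bar at the mean and whiskers of 1 SD. With fasting the mean moved from -5.87 to -2.22 for *Scd1* to *Scd2* and from 3.45 to 0.81 for *Acaca* to *Acacb* in *Nt*+/+ mice, without overlap, while *Srebf1* to *Srebf2* overlapped.

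Loss of *Nt* was compared within each diet. In fed mice none of the 10 genes was called in edgeR's test (0.00559% of all genes tested, which is *Nts* itself), and none had an unadjusted p under 0.05; DESeq2 also called none. Their log2 differences, *Nt*-/- against *Nt*+/+, ran from -0.31 for *Acacb* to 0.34 for *Me1*. In fasted mice none was called either (0.00559% of all genes, *Nts* again), by edgeR or DESeq2, and 1 had an unadjusted p under 0.05. That gene was *Fasn*, at -0.38 ± 0.12 on the log2 scale (unadjusted p = 0.0065, adjusted p = 0.344). For *Acacb* the difference was -0.39 ± 0.21 (adjusted p = 0.613), and 0.02 with fasted *Nt*+/+ replicate 5 taken as *Nt*-/-. The groups overlapped for both genes.

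Whether fasting acted differently in the 2 genotypes was tested directly, and the test called no gene (0.0% of all genes tested) and so none of the 10, and DESeq2 called none of them. The unadjusted p was under 0.05 for 1 of the 10, again *Fasn*, whose fall was greater in *Nt*-/- mice by 0.41 ± 0.18 on the log2 scale (unadjusted p = 0.034, adjusted p = 1.0). For *Scd2* the difference was -0.39 ± 0.46 and for *Acacb* -0.08 ± 0.32. A difference must exceed its error by a wide margin to be called, as *Fasn* shows. Differences between the genotypes as large as these errors, or larger, are therefore not excluded. *Acaca* passed the test in *Nt*-/- mice and not in *Nt*+/+ mice, but its effects differed by only -0.12 ± 0.14 (adjusted p = 1.0).

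Around the 10 genes, 100 others were listed in 10 groups by role, of which 98 were matched by symbol and 91 could be tested. In *Nt*+/+ mice 18 were called higher with fasting (19.8%, beside 11.2% of all genes) and 16 lower (17.6%, beside 10.4%). In *Nt*-/- mice 21 were called higher (23.1%, beside 12.5%) and 16 lower (17.6%, beside 12.6%). At those shares of all genes a group of 6 would hold under 1 call in each direction and a group of 14 between 1.45 and 1.77, so counts of 1 or 2 are not results about a group. None was called between the genotypes in either diet or for the difference between the effects of fasting. The groups and the genes named were chosen by the rule given under the processing.

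Of the 6 genes made up of *Srebf2* and those that process SREBP precursors, none was called in either genotype, where the shares of all genes would give between 0.622 and 0.758 in each direction, so the count is close to them (median log2 fold change 0.00 in *Nt*+/+ and -0.05 in *Nt*-/- mice). *Srebf2*, which encodes the sterol-responsive SREBP-2, stood at 180 ± 22.3 CPM (SD, n = 5) in fed and 202 ± 20.7 CPM (n = 5) in fasted *Nt*+/+ mice (adjusted p = 0.301, edgeR). The log2 ratio of *Srebf1* to *Srebf2* changed by -0.03 ± 0.14 with fasting in *Nt*+/+ mice (exact permutation test, adjusted p = 0.833) and by 0.22 ± 0.11 in *Nt*-/- mice (adjusted p = 0.222). *Mbtps1*, the site-1 protease, differed by -0.15 ± 0.07 (edgeR adjusted p = 0.151) and -0.13 ± 0.08 (adjusted p = 0.234).

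Among 8 genes of the liver X receptors and their targets, which lie upstream of *Srebf1* in liver, 4 were called higher in *Nt*+/+ mice, where the share of all genes would give 0.90, and 3 in *Nt*-/- mice, where it would give 1.0. None was called lower, where it would give 0.829 and 1.01. *Rxra*, the shared receptor partner, rose by 0.49 and 0.51 on the log2 scale. *Mylip*, which marks the LDL receptor for decay, rose by 1.01 and 1.11, and *Lpcat3*, a phospholipid-remodeling enzyme, by 0.41 and 0.37. *Abca1*, the cholesterol exporter, rose by 0.85 ± 0.25 in *Nt*+/+ mice (edgeR adjusted p = 0.0185) and stood at 0.61 ± 0.27 in *Nt*-/- mice (adjusted p = 0.0982). The median over the 8 was 0.40 and 0.29.

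Some known targets of ChREBP were higher in fasted mice, while *Mlxipl* itself did not pass the test. Of 7 partner and target genes tested, 3 were called higher in *Nt*+/+ and 4 in *Nt*-/- mice, where the shares of all genes would give 0.787 and 0.878. None was called lower, where they would give 0.725 and 0.884. The partner gene *Mlx* (0.10 and 0.13 on the log2 scale) was not called in either genotype. Neither were the target genes *Txnip* (0.39 and 0.43) and *Arrdc4* (-0.07 and 0.20). *Khk*, ketohexokinase, rose from 77.7 ± 12.9 to 149 ± 26.9 CPM in *Nt*+/+ mice (n = 5 and 5) and from 91.0 ± 12.3 to 202 ± 26.8 CPM in *Nt*-/- mice (n = 4 and 5). *Gpd1*, glycerol-3-phosphate dehydrogenase, rose by 0.80 and 0.94 on the log2 scale, and *Tkfc*, triokinase, by 0.36 and 0.73. *Pklr*, pyruvate kinase, rose by 0.41 ± 0.10 in *Nt*-/- mice (edgeR adjusted p = 0.00572) and stood at 0.12 ± 0.10 in *Nt*+/+ mice (adjusted p = 0.414). *Khk*, *Gpd1*, *Tkfc*, and *Pklr* are also expressed by villus enterocytes, whose markers rose in the same mice.

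Of 9 genes for acetyl-CoA and citrate supply, 1 was higher and 2 lower in *Nt*+/+ mice, and 2 higher and 3 lower in *Nt*-/- mice, where the shares of all genes would give between 0.932 and 1.14 in each direction. *Pdhb* and *Dlat*, subunits of pyruvate dehydrogenase, fell by 0.37 and 0.32 in *Nt*+/+ mice and by 0.31 and 0.27 in *Nt*-/- mice on the log2 scale. *Aco1*, cytosolic aconitase, rose by 0.55 and 0.77. *Slc25a1*, the citrate carrier, rose by 0.38 ± 0.11 in *Nt*-/- mice (edgeR adjusted p = 0.0114) and stood at 0.25 ± 0.10 in *Nt*+/+ mice (adjusted p = 0.0738). Of 11 genes listed around NADPH supply besides *Me1*, not all of which make NADPH, 2 were higher and 3 lower in each genotype. Those shares would give 1.24 and 1.14 in *Nt*+/+ and 1.38 and 1.39 in *Nt*-/- mice. *Idh1*, cytosolic isocitrate dehydrogenase, rose by 0.61 and 0.84, and *Mthfd1*, of folate metabolism, fell by 0.39 and 0.58. The mitochondrial malic enzymes differed in which genotype passed: *Me3* rose by 1.37 in *Nt*+/+ mice and stood at 0.66 in *Nt*-/- mice (adjusted p = 0.06), whereas *Me2* rose by 0.46 in *Nt*-/- mice and stood at 0.24 in *Nt*+/+ mice (adjusted p = 0.0735). Neither difference between genotypes was called.

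Regulators of the enzymes included *Mid1ip1*, which promotes the assembly of acetyl-CoA carboxylase. It fell from 38.7 ± 4.04 to 25.04 ± 3.84 CPM in *Nt*+/+ mice (n = 5 and 5) and from 44.0 ± 4.54 to 23.2 ± 4.70 CPM in *Nt*-/- mice (n = 4 and 5). *Mlycd*, which breaks down malonyl-CoA, rose by 0.52 and 0.54 on the log2 scale. *Prkaa1*, a catalytic subunit of AMP-activated kinase, fell by 0.32 ± 0.10 in *Nt*-/- mice (edgeR adjusted p = 0.0294) and stood at -0.22 ± 0.10 in *Nt*+/+ mice (adjusted p = 0.116). Of the 9 genes tested in this group, 1 was higher in each genotype, and 1 was lower in *Nt*+/+ and 2 in *Nt*-/- mice. These counts are close to the shares of all genes, which would give between 0.932 and 1.14 in each direction.

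Of 9 elongation genes tested besides *Elovl6*, 4 fell in *Nt*+/+ and 2 in *Nt*-/- mice, where the shares of all genes would give 0.932 and 1.14, and none rose, where they would give 1.01 and 1.13. The list medians were -0.23 in each genotype. *Elovl7* fell by 0.48 and 0.43 and *Elovl5* by 0.55 and 0.60 on the log2 scale. *Hsd17b12*, a reductase of the cycle, and *Hacd1*, a dehydratase, fell by 0.31 and 0.28 in *Nt*+/+ mice, and in *Nt*-/- mice stood at -0.25 (edgeR adjusted p = 0.0545) and -0.26 (adjusted p = 0.0847). Among 9 other desaturase genes and their electron donors, 4 were higher and 2 lower in *Nt*+/+ mice, and 5 higher and 2 lower in *Nt*-/- mice, beside the same shares. *Fads1*, the delta-5 desaturase, fell by 0.57 and 0.69, whereas *Fads6* rose by 1.41 and 1.01. The electron donors *Cyb5r3* and *Cyb5b* rose by 0.71 and 0.35 in *Nt*+/+ mice and by 0.93 and 0.56 in *Nt*-/- mice.

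Mitochondrial fatty acid synthesis, a separate route that makes lipoic acid precursors, had 9 genes tested. There 1 was higher and 1 lower in *Nt*+/+ mice, and 2 higher and 2 lower in *Nt*-/- mice. At the shares of all genes between 0.932 and 1.14 would be called in each direction. *Ndufab1*, the acyl carrier protein, fell by 0.38 and 0.43 on the log2 scale, and *Mcat*, the malonyl transferase, rose by 0.30 and 0.42. *Mecr*, the enoyl reductase, fell by 0.37 in *Nt*-/- mice and stood at -0.23 in *Nt*+/+ mice (edgeR adjusted p = 0.143), and *Lias*, lipoic acid synthase, rose by 0.19 in *Nt*-/- mice and stood at 0.13 in *Nt*+/+ mice (adjusted p = 0.165).

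Of 14 genes of insulin signaling and other inputs to *Srebf1*, 2 were higher and 3 lower in *Nt*+/+ mice, and 2 higher and 2 lower in *Nt*-/- mice. At the shares of all genes 1.57 and 1.45 would be called in *Nt*+/+ mice, and 1.76 and 1.77 in *Nt*-/- mice. *Irs2* and *Insr*, a substrate of the insulin receptor and the receptor itself, rose, with log2 fold changes of 0.62 and 0.25 in *Nt*+/+ and 0.87 and 0.38 in *Nt*-/- mice. *Lpin1*, a phosphatidate phosphatase that also curbs SREBP-1, fell from 33.8 ± 13.8 to 15.3 ± 3.495 CPM in *Nt*+/+ mice (n = 5 and 5) and from 30.4 ± 10.9 to 12.7 ± 1.90 CPM in *Nt*-/- mice (n = 4 and 5). *Nfya*, a subunit of the factor that binds CCAAT boxes, fell by 0.59 and 0.67 on the log2 scale.

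**Figure D5:**
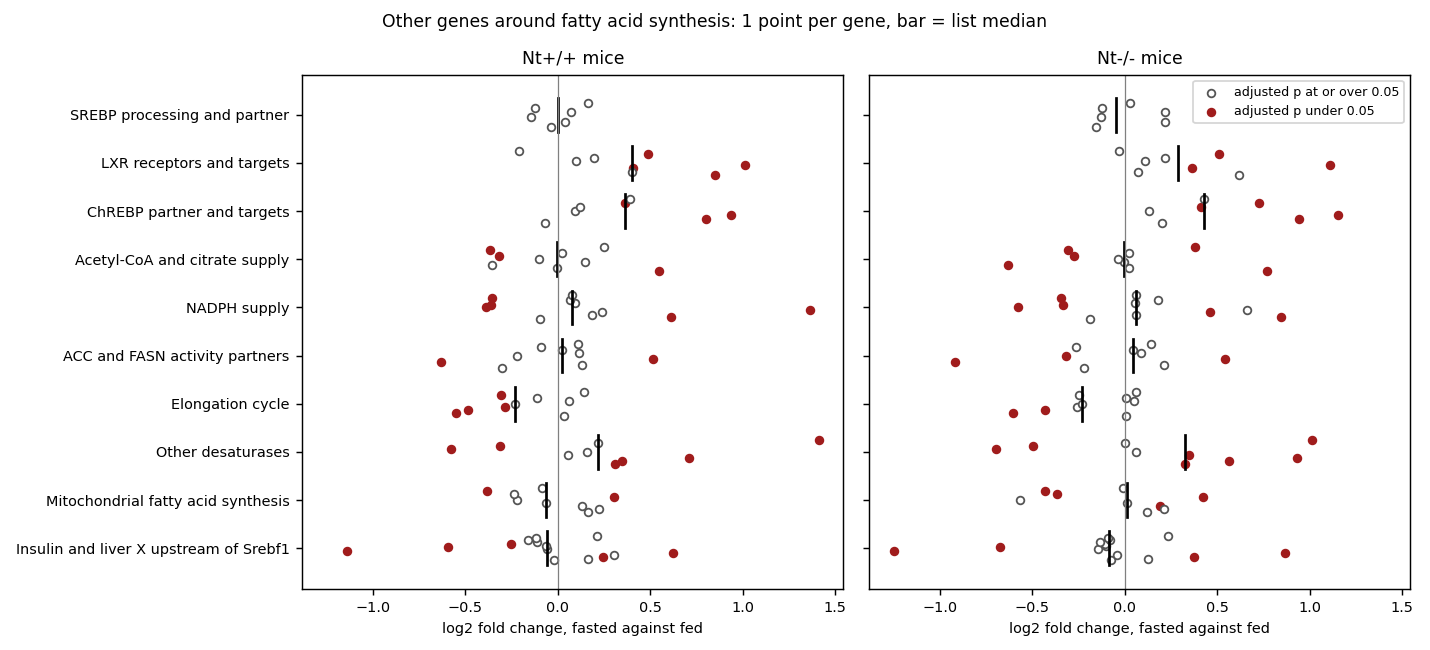
Log2 fold change of fasted against fed mice (horizontal axes) for the 91 tested genes around lipogenesis in *Nt*+/+ (left) and *Nt*-/- mice (right), with 1 point per gene, filled where the adjusted p was under 0.05, and a bar at each list's median. Lists hold 6 to 14 genes, of which 18 points are filled to the right and 16 to the left of 0 in *Nt*+/+ mice, and 21 and 16 in *Nt*-/- mice.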

How the data were processed

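RNA of small intestinal crypts was measured in 19 mice, grouped by their titles. The authors depleted ribosomal RNA, read the libraries from 1 end, trimmed with Trimmomatic 0.39, and quantified with RSEM on Ensembl transcripts of GRCm38. They deposited RSEM's expected count per gene, which is not normalized, its TPM, and its effective length in bases, another unit. The RSEM version and strand setting are not given in the sources used here, and the deposited FPKM was not used.

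Expected counts were rounded, scaled by TMM, filtered with filterByExpr, and tested with the quasi-likelihood test of edgeR 4.0.16 (R 4.3.3; limma 3.58.1) over 17875 genes, with 1 coefficient for each of the 4 groups, 15 residual degrees of freedom, and Benjamini-Hochberg adjustment at 0.05. The fit was tested on simulated data. SE is the log2 fold change over the square root of F. CPM uses TMM library sizes. Ratios are log2 of counts plus 0.5, compared by exact permutation tests (scipy 1.17.1, Python 3.11.15) adjusted over 12. Limma on log2(TPM + 0.5) and DESeq2 1.42.0 were alternatives. With between 9059457 and 35068711 counts per mouse, genes at a few CPM rest on few counts.

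The 10 genes and the pathway and marker lists were chosen with earlier results of these data known. Named are all 10, *Nts*, *Srebf2*, and from each pathway list up to 4 genes with the smallest p among those called with fasting, or else the 2 most abundant. Genes of the marker lists and the other tested genes of the ChREBP list are named as well. For mice with the same file number, the correlation of their deviations from group means was over 0.1 in every pair of each comparison (lowest, 0.117). With title numbers the lowest correlation was not over 0.1 in 2 of 4 comparisons (lowest, -0.065). File numbers were therefore used to join mice in pairs and, as an alternative, as a block. The main fit and the main ratio tests used no pairing. Mice with the same file number were also of the same sex wherever a sex was given. Title numbers 3 and 4 of the fed *Nt*-/- group belonged to the other sex than in the other groups. A shared handling and a shared sex can therefore not be told apart by these correlations. No correlation between mice with different numbers is given here, so these values do not establish that the numbers pair the mice. Where nothing says that mice of a group were handled separately, p-values measure only the spread between these samples. All 10 genes passed the filter.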

Additional observations from a re-analysis of the deposited data

Results flagged for a closer look

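*Scd1* in replicate 4 of the fed *Nt*-/- group, at 6.66 CPM, stood apart from the other 3 mice of that group, which lay between 2.17 and 2.76 CPM. The gap to the nearest mouse was 0.868 of the group's range, past Dixon's critical value for 4 samples. It was 1 such value among 40 groups of the 10 genes examined, and chance alone flags about 1 in 20. The count behind it was 125. Without that mouse the log2 fold change of *Scd1* with fasting in *Nt*-/- mice was -0.66 (edgeR adjusted p = 0.418), beside -1.17 with it and a range of -1.51 to -0.66 over fits that left out a mouse.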

How the results depend on the processing

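The falls of *Scd2*, *Elovl6*, and *Fasn*, in *Nt*-/- mice also *Acly* and *Acaca*, and the rise of *Acacb*, passed the test under all 11 alternatives of scaling, filter, tool, grouping, and covariate; *Acly* and *Acaca* in *Nt*+/+ mice did not keep their side of the threshold throughout. The number of genes called with fasting in *Nt*+/+ mice was 4 to 7 under these and 3 to 6 when a mouse was left out. Signs that turned belonged to differences that were not called. With the disagreeing mouse taken as *Nt*-/-, log2 differences turned for *Mlxipl* with fasting in *Nt*+/+ mice (0.029), in fasted mice between genotypes for *Acacb* (0.021) and *Elovl6* (0.003), in the difference between the effects of fasting for *Srebf1* (-0.032) and *Acacb* (0.327), and in the ratios of *Acaca* to *Acacb* between fasted genotypes (-0.085) and *Srebf1* to *Srebf2* with fasting in *Nt*+/+ mice (0.02). With sex as a covariate (without the mouse whose sex is not given), *Mlxipl* (0.038) and *Me1* (-0.107) turned between fasted genotypes. With limma on TPM, *Elovl6* between fed genotypes (-0.106) and *Acacb* in the difference of effects (0.022) turned, as did the TPM ratio of *Srebf1* to *Srebf2* in *Nt*+/+ mice (0.016). The cause was not tested.

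With the number of the file names as a replicate block, *Elovl6* between fed genotypes (-0.017) and *Acacb* in the difference of effects (0.019) turned sign. Pairing changed no call among the 10 genes other than those of *Acaca* and *Me1* in *Nt*+/+ mice. For the ratios, sign permutation within pairs of title numbers as a replicate block gave the same direction but an adjusted p of 0.25, since 5 pairs allow no p under 0.0625 and 4 none under 0.125: *Scd1* to *Scd2* 3.64 in *Nt*+/+ and 3.24 in *Nt*-/- mice, and *Acaca* to *Acacb* -2.64 and -2.72. Pairing by file-name numbers as the replicate block, an alternative chosen after seeing the data, gave the same adjusted p of 0.25, with 3.64 and 3.36 for the former and -2.64 and -2.785 for the latter, and turned the uncalled *Scd1* to *Scd2* difference between fed genotypes (-0.124).

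Leaving out a mouse turned the sign in part of these ranges: *Mlxipl* with fasting in *Nt*+/+ mice, -0.106 to 0.03; between fed genotypes *Srebf1* -0.003 to 0.112, *Acly* -0.054 to 0.113, *Acaca* -0.103 to 0.013, *Fasn* -0.037 to 0.088, *Me1* -0.282 to 1.175, *Scd1* -0.232 to 0.564, *Scd2* -0.252 to 0.313, and *Elovl6* -0.036 to 0.118; between fasted genotypes *Mlxipl* -0.126 to 0.051; and in the difference of effects *Acacb* -0.228 to 0.11 and *Me1* -1.006 to 0.452. For ratios the ranges were, for *Scd1* to *Scd2*, -0.124 to 0.536 between fed and -0.632 to 0.186 between fasted genotypes, and for *Srebf1* to *Srebf2* with fasting in *Nt*+/+ mice -0.104 to 0.065. In *Nt*-/- mice the fasting ratios stayed between 2.94 and 3.60 for *Scd1* to *Scd2* and between -2.88 and -2.57 for *Acaca* to *Acacb*, with an adjusted p of 0.0686 to 0.107; since 4 against 4 mice allow no unadjusted p under 0.0286 and 5 against 3 none under 0.0357, these p-values say nothing about stability.

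Over all genes, limma on TPM called 2416 with fasting in *Nt*+/+ mice (927 higher, 1489 lower) where edgeR called 3862 (2010 higher, 1852 lower), and 2908 in *Nt*-/- mice where edgeR called 4499. Between fasted genotypes DESeq2 called 98 and edgeR 1, between fed genotypes 4 and 1, and for the difference of effects 1 and 0; edgeR called 0 in the 2 genotype comparisons with at least 10 counts in every mouse or with the disagreeing mouse as *Nt*-/-. With the replicate block of the file names edgeR called 5484 and 5672 genes with fasting in *Nt*+/+ and *Nt*-/- mice. Depth limits *Scd1*, where 4 to 125 counts lay behind a value.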
